A study of Mus musculus with 7 samples.

Results

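Transient expression in the middle of embryonic colon development was examined as the set of genes whose levels at embryonic days E15.5 and E16.5 both lay outside the levels of the days around them. A gene was called a peak if its values on both middle arrays lay above its values on all 4 outer arrays (E13.5, E14.5, E17.5 and E18.5), and a dip if both lay below all 4. By this rule 1277 of 18194 measured genes (7.02%) were peaks and 927 (5.1%) were dips, 2204 genes in all. If 6 distinct values stood in arbitrary order, 1 of 15 arrangements (a share of 0.0667) would make a peak, and 1 of 15 a dip. The share of peaks was near this value and that of dips below it, so these counts are not by themselves counts of transient events. The gap is the distance in log2 units between the middle values and the nearest outer value, and it is written as a negative number for a dip. Most gaps were small. Only 2 peaks (0.011% of genes), Bnip5 and Cldn11, and 2 dips (0.011%), Aldh1a7 and Oma1, had a gap of at least 0.5, and none reached 1.

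The samples were total RNA from the colon of inbred C57BL/6 mice, with 1 array per stage for the 6 embryonic days and 1 adult array at 8 weeks of age, hybridized to Affymetrix oligonucleotide arrays. No treatment or mutation was named for any group. Values are log2 intensities normalized by RMA, so a difference of 1 is a factor of 2. Signals of different probe sets do not give relative transcript amounts, and genes are called dim or bright by array signal only. There were no replicates, and how many embryos were used per array was not given in the sources used here. Each stage is a single array, so stage and array cannot be told apart, and an exact permutation test of 2 arrays against 4 has 15 arrangements and a smallest two-sided p of 0.133. Counts and gaps are therefore given as descriptions, and the test used across genes was a limma model with a slope for embryonic day and a middle term, which is the mean difference of the middle from the outer days. In whole colon, fewer cells of a type and less RNA per cell cannot be told apart.

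During these days the mouse colon changes from a tube of stratified or pseudostratified endoderm into a folded epithelium with differentiating secretory and absorptive cells, while smooth muscle, stroma and the enteric nervous system are laid down around it. Most genes of differentiated colon switch on and stay on, and a transient event is one that turns back within the window. The intestinal markers were measured on all arrays. Cdx2, a homeobox factor of intestinal identity, lay between 8.58 and 9.07 on the embryonic arrays, and Epcam, an adhesion protein of epithelial cells, between 8.64 and 9.85. Neither was a peak or a dip. Xist, transcribed from the inactive X chromosome of females, was between 10.65 and 11.06 on the embryonic arrays, and the brightest probe set of Y-linked Eif2s3y was between 9.64 and 10.02. Female- and male-specific transcripts were thus both present on every embryonic array, and none of the 4 sex-linked genes measured was a peak or a dip.

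The promoters of the 4 genes with a gap of at least 0.5 are shown because these genes lay farthest from their nearest outer value. Each is the run of 250 bases upstream of the RefSeq gene start on GRCm38.p6, written 5′ to 3′ on the strand of the gene. Capitals mark matches, on either strand, to 5 short motifs. The TATA box was searched as the letters TATAAA. The box bound by the factor NF-Y was searched as the letters CCAAT. The GC box known from housekeeping promoters was searched as the letters GGGCGG. The core of the sites of ETS factors was searched as the letters CCGGAAG. Part of the NRF1 motif was searched as the letters GCGCATG, and matches of different motifs that overlapped were each counted. Aldh1a7 lies on the minus strand (chr19:20727557-20727806), Oma1 on the plus strand (chr4:103313596-103313845), Cldn11 on the plus strand (chr3:31149670-31149919) and Bnip5 on the minus strand (chr17:28915325-28915574).
Aldh1a7: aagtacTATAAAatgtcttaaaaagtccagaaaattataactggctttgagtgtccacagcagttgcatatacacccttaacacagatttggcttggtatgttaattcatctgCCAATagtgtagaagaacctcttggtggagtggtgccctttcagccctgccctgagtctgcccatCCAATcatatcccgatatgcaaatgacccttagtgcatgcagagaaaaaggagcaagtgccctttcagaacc
Oma1: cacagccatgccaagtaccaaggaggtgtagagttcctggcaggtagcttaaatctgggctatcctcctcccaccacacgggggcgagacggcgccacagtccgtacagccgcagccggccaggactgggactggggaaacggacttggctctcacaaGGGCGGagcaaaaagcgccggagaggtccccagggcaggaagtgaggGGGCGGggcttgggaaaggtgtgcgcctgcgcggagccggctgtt
Cldn11: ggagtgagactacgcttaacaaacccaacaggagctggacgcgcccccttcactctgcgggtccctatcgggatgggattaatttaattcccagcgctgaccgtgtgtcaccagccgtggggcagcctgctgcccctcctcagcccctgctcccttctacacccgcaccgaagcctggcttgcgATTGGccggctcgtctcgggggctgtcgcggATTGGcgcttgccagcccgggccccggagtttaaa
Bnip5: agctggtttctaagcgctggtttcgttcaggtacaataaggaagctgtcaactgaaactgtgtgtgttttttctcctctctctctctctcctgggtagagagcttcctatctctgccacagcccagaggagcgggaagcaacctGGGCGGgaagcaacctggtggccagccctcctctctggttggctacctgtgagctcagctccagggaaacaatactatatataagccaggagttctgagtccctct
The upstream runs of the dips Aldh1a7 and Oma1 had little in common. Aldh1a7 had 1 CpG, a GC content of 43.2%, 1 TATA box at the distal end of the window and 2 NF-Y boxes. Oma1 had 16 CpG, a GC content of 64.8% and 2 GC boxes. The peaks Cldn11 (19 CpG, 2 NF-Y boxes) and Bnip5 (4 CpG, 1 GC box) also differed from each other. Bnip5 also holds the letters TATATAA near the gene start, which the search for TATAAA does not count. Matches are of letters only, wherever they lie in the window. Of the 14453 measured genes with an upstream sequence, 9.02% held the TATA box, 35.7% the NF-Y box, 49.9% the GC box, 10.6% the ETS core and 4.74% the NRF1 part.

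Aldh1a7, an aldehyde dehydrogenase closely related to the retinal dehydrogenase Aldh1a1, had the largest gap of any gene. Its levels on the embryonic arrays, from the earliest to the latest day, were 9.41, 8.49, 7.46, 7.32, 8.34 and 8.76, and its adult level was 8.98. The level was lower on each array up to E16.5, then higher on each array after it, and the adult value lay inside the outer range. The middle mean was 2.56-fold below the outer mean, with a middle term of -1.36 (SE 0.25, limma adjusted p = 0.443). Aldh1a7 is measured by a single probe set, and its sequence is close to that of Aldh1a1, so some signal may be shared. Aldh1a1 itself did not dip, with 11.43 at E15.5 and 11.28 at E16.5 against outer values of 10.90 to 11.34.

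Oma1, a metalloprotease of the mitochondrial inner membrane, had flat shoulders on both sides of its dip. It was at 7.30 and 7.28 on E13.5 and E14.5, at 6.69 and 6.63 on the middle days, and at 7.20 and 7.35 on E17.5 and E18.5. The middle mean was 1.54-fold below the outer mean (middle term -0.62, SE 0.08, limma adjusted p = 0.443). Its adult level, 8.79, was above every embryonic value. The gap was -0.51, just inside 0.5.

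Afp, the alpha-fetoprotein made by yolk sac, fetal liver and fetal gut, lay just outside 0.5 with a gap of -0.49. Its levels were 7.92, 8.14, 7.43, 6.31, 8.02 and 9.51 over the 6 embryonic days, and 5.09 in the adult. E16.5 was the lowest embryonic array, and without E15.5 the gap would be -1.61. Of its 5 probe sets 4 met the rule, and the other was dim. Among 20 genes of liver secreted proteins, Apoa2 was also a dip, at 6.52 and 6.45 against 6.58 to 6.73, and Serpinc1 was a peak with a gap of 0.02. Dips were thus 10% of the list against 5.1% of all genes, and peaks 5% against 7.02%. At an unadjusted limma p under 0.05, 6 of the 20 were lower and 0 higher, compared with 7.01% and 3.16% of all genes. Among those 6 was Apoc3, with 5.52 and 5.43 on the middle days, 5.14 and 5.15 before them and 7.92 and 9.24 after. Alb, the defining secreted protein of liver, was at 6.71 and 6.77 on the middle days against 6.24 to 6.72. The median of the list was 5.60 and 5.57 on the middle days and between 5.25 and 6.05 on the outer days. The middle term of Afp was -1.52 (SE 0.46, limma adjusted p = 0.443).

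Hpgd, which inactivates prostaglandins, was at 9.09, 8.05, 7.31, 7.67, 8.30 and 8.72 over the embryonic days and reached 11.77 in the adult. Both of its probe sets met the rule, with gaps of -0.28 and -0.47. Postn, a secreted matrix protein of fibroblasts, had a similar course of 9.53, 8.93, 8.22, 8.59, 9.23 and 9.48, with 10.14 in the adult. In both genes E15.5 was the lowest array, and E13.5 and E18.5 were the highest embryonic arrays. Rims1, a scaffold of the presynaptic active zone, had a dip before a higher late level, at 6.98, 7, 6.52, 6.60, 7.56 and 7.93, and both of its probe sets met the rule.

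Other dips among the 20 with the largest gaps had varied roles, with middle means 1.32- to 1.60-fold below the outer means. Nsun2, an RNA cytosine methyltransferase, was at 6.99 and 7.32 on the middle days against 7.64 to 8.03. Myo6, a motor of endocytic traffic, was at 8.47 and 8.63 against 8.96 to 9.14, although 1 of its 3 probe sets, a dim one, was a peak. Nudt4, a hydrolase of inositol pyrophosphates, was at 8.36 and 8.60 against 8.89 to 9.11, with both probe sets dipping. Snap23 and Rab32 act in vesicle fusion and traffic, Net1 activates RhoA and Ralgapa2 restrains Ral proteins, and their gaps were between -0.29 and -0.30. Of the 3 probe sets of Snap23 only 1 was a dip, a dim one was a peak, and the brightest was neither. The gaps of Iah1, a lipase-like hydrolase, Lap3, an aminopeptidase, and Fam118b were -0.34, -0.33 and -0.32.

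Mitochondrial proteins were named on both sides, as the dips below and the peaks Ndufb4 and Echdc3, and their share among all genes was not counted. Mtif2, an initiation factor of mitochondrial translation, was at 7.79 and 7.80 on the middle days against 8.11 to 8.37. Ndufaf3, an assembly factor of respiratory complex I, was at 6.21 and 6.30 against 6.61 to 6.90. Ak3, an adenylate kinase of the mitochondrial matrix, was at 5.38 and 5.30 against 5.67 to 5.98, but its brightest probe set was not a dip. The same held for the glutaredoxin Glrx2, at 6.54 and 6.52 against 6.89 to 7.14, for which 1 of 3 probe sets met the rule.

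Bnip5 had the largest peak gap, 0.69. It was at 7.15, 8.87, 9.72, 9.71, 8.97 and 9.01 over the embryonic days and at 11.51 in the adult. The middle days were above all outer days, yet the adult level was above the middle days, and E13.5 lay far below the other outer arrays. The middle term was 1.21 (SE 0.37, limma adjusted p = 0.448), and it was 0.79 without E13.5. Cldn11, a tight junction claudin known from myelin and testis, was dimmer and returned to its early level or lower, at 4.69, 4.85, 5.43, 5.39, 4.72 and 3.94, with 4.33 in the adult. Its middle mean was 1.81-fold above the outer mean (middle term 0.86, SE 0.19, limma adjusted p = 0.443).

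Col14a1, a collagen that sits on the surface of collagen fibrils, was among the larger peaks. It was at 6.95 and 7.90, then 8.37 and 8.30, then 7.86 and 7.79, and at 6.34 in the adult, and 2 of its 3 probe sets met the rule. Cygb, a globin of fibroblast-like cells, was at 7.12 and 7.16 on the middle days against 6.52 to 6.83. Echdc3, a mitochondrial protein of the enoyl-CoA hydratase family, was at 7.85 and 7.94 against 7.15 to 7.49, and Ankle1, a nuclease, at 8.57 and 8.67 against 8.06 to 8.24. The gap of the clone-named gene 4932414N04Rik, 0.47, lay just outside 0.5.

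Many of the other named peaks were dim. The 1820 dimmest genes had outer means of at most 4.56, and Il2, a growth factor of T cells, had an outer mean of 4.40, with 5.06 and 4.76 on the middle days against 4.33 to 4.45. Rag1, a recombinase of developing lymphocytes, was at 5.49 and 5.33 against 4.93 to 5.06. The single probe set of Ndufb4, a subunit of complex I, was at 5.06 and 4.98 against 4.34 to 4.55, a dim signal. Nalcn, a sodium leak channel of neurons, was at 5.97 and 5.85 against 4.83 to 5.58, with both probe sets peaking. The gaps of Ppp1r26, Optc, Ifnab, Zswim5, Rtl3, Pramel1, Fabp12 and Ppp1r14c were between 0.27 and 0.30. Sox9, a transcription factor of progenitor cells, and Shisa9 were peaks of the median that depended on probe sets. No probe set of Sox9 met the rule alone, and its brightest gave 8.73, 8.98, 9.48, 9.08, 9.20 and 9.32. Of the 3 probe sets of Shisa9, 1 met the rule.

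**Figure D1:**
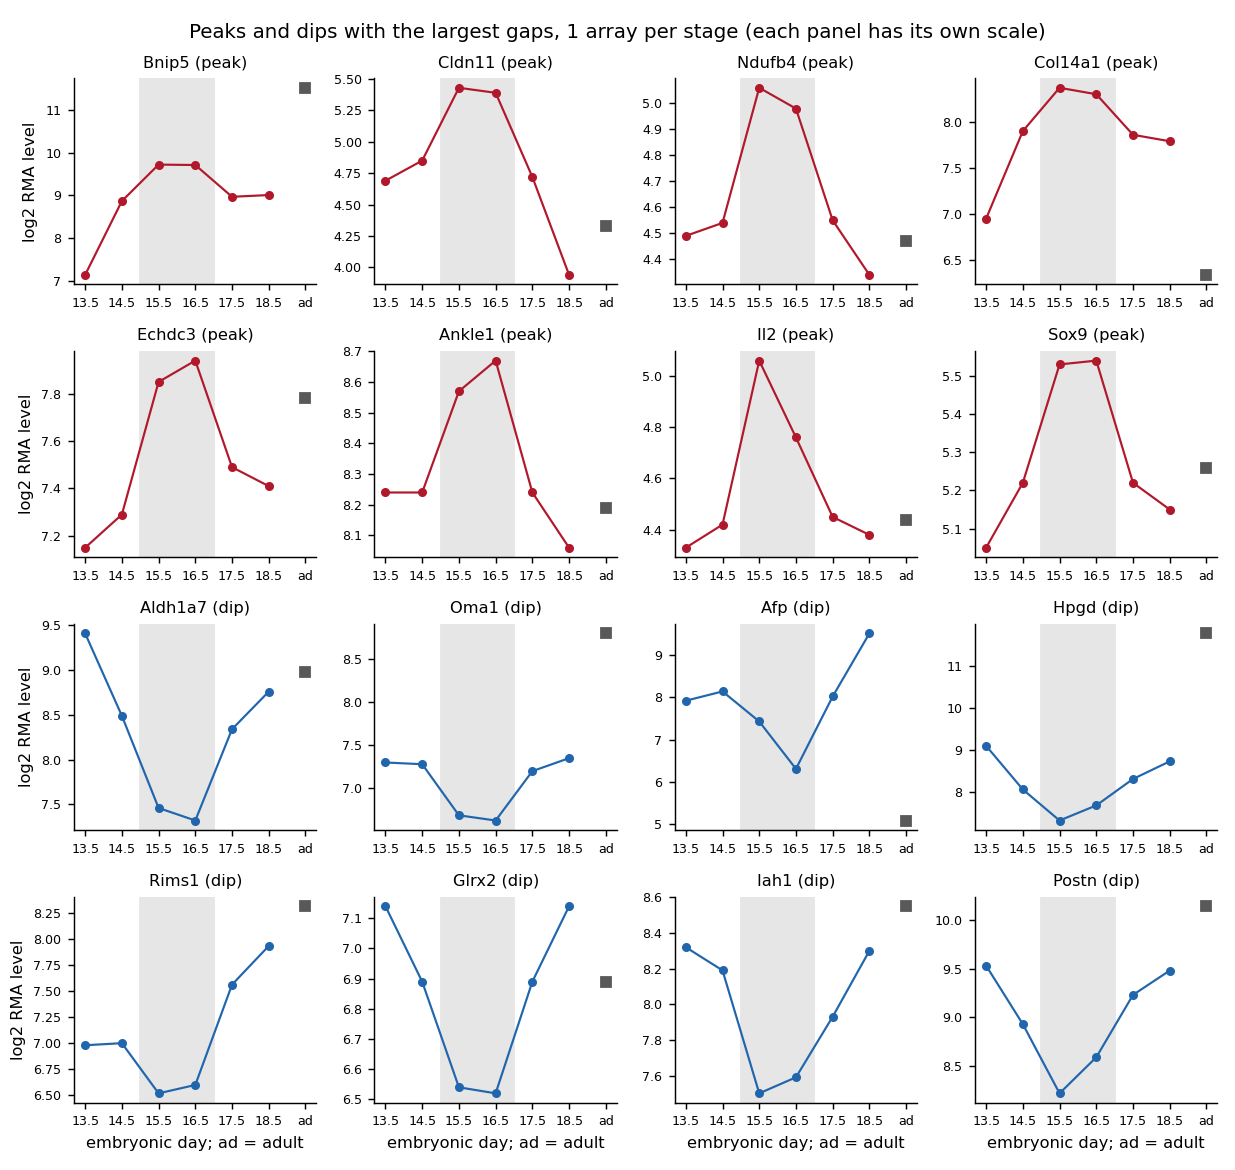
Levels (log2, RMA) of the 8 peaks in red and the 8 dips in blue with the largest gaps, by embryonic day (circles) and in the adult (grey squares), 1 array per point and a separate scale in each panel, with the middle days shaded. Aldh1a7 lies at 7.46 and 7.32 on the middle days and between 8.34 and 9.41 on the outer days, and the adult values of Bnip5, Oma1 and Hpgd lie above all their embryonic values.

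Over all members the gap was mostly smaller than the scatter around the fitted line and step. The median gap was 0.0427 for peaks and 0.048 for dips, against a median residual SD of 0.108 over all genes. The gap exceeded the residual SD of the same gene in 455 peaks (35.6%) and 286 dips (30.9%). Gaps of at least 0.2 were found in 58 peaks and 61 dips, and gaps of at least 0.3 in 11 peaks and 15 dips. The middle days were not equal within the window. E15.5 was the lower of the middle arrays in 670 dips (72.3%) and the higher in 769 peaks (60.2%). This was not particular to peaks and dips, since over all genes E15.5 was the lowest of the 6 arrays in 3678 genes and E16.5 in 1463, and E15.5 was the highest in 3312 and E16.5 in 1988. Of all genes 5278 (29%) had equal values, compared without rounding, on 2 or more embryonic arrays, and a middle value equal to an outer value kept 761 genes from meeting the rule.

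No gene passed the limma test of the middle term in either direction (0% of genes called higher and 0% called lower, smallest adjusted p = 0.443). At an unadjusted limma p under 0.05, 575 genes (3.16%) were higher and 1275 (7.01%) were lower on the middle days. After quantile normalization of the gene values, an alternative chosen after the data were seen, these counts were 908 higher and 876 lower. Of the 575, 459 were peaks, and of the 1275, 472 were dips. The fit has 3 residual degrees of freedom, and the scatter around the fit is its only error. Since the rule and the test use the same 6 values, the overlap is a description.

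Genes with a steady course were counted beside the peaks and dips. The level was higher at every step from E13.5 to E18.5 in 534 genes (2.94%) and lower at every step in 439 (2.41%). For distinct values in arbitrary order, far fewer arrangements make a steady course than make a peak or a dip. These shares therefore cannot be compared directly with those of peaks and dips. The median difference between E18.5 and E13.5 was 1.39 in the first group and -0.85 in the second. It was at least 1 in size in 345 and 162 genes, whereas no gap reached 1. A gap is measured to the nearest outer value and a steady difference from end to end, so the sizes are not the same quantity. The middle mean minus the outer mean had a median of 0.17 in peaks and -0.23 in dips.

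**Figure D2:**
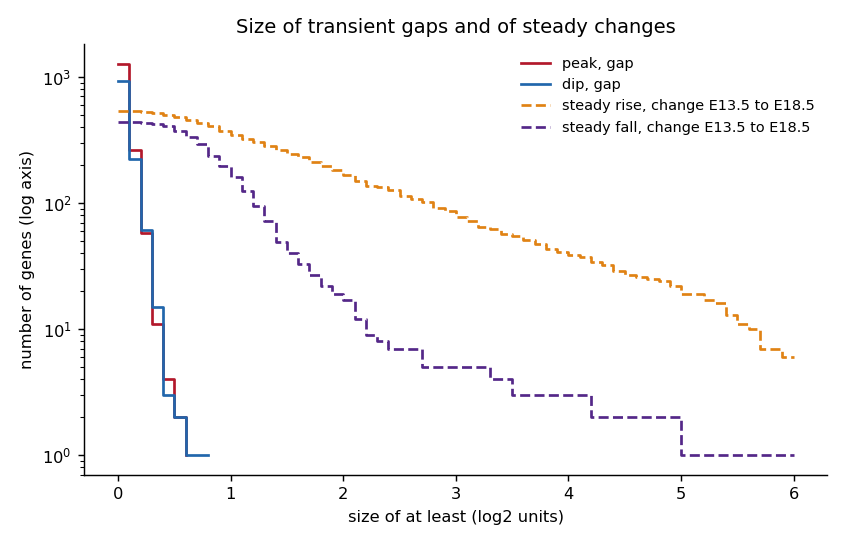
Number of genes (log axis) with a size of at least the value on the horizontal axis (log2 units), for the gaps of peaks and dips and for the difference between E13.5 and E18.5 in genes with a steady rise or fall in level. The curves of peaks and dips end below 1, where 345 steadily rising and 162 steadily falling genes remain.

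Most genes with a large middle term did not meet the rule. The term was -1 or lower in 36 genes, of which 3 were dips and 33 had a higher level at E18.5 than at E13.5, and it was 1 or higher in 6 genes, of which 1 was a peak. The genes named in this paragraph were chosen after their values were seen. Apoa1, the main protein of high-density lipoprotein, was at 6.91, 6.90, 6.71 and 6.99 up to E16.5 and at 10.57 and 11.26 on the last embryonic days (middle term -2.06, SE 0.31, limma adjusted p = 0.443). Fabp2, an intestinal fatty acid-binding protein, was at 5.69, 6.00, 5.76, 7.24, 10.35 and 10.80. Muc2, the gel-forming mucin of goblet cells, was at 5.99, 6.07, 6.25, 7.66, 10.36 and 11.38. In Apoa1 both middle days resembled the early days, whereas in Fabp2 and Muc2 only E15.5 did and E16.5 was already higher. Saa1, an acute-phase apolipoprotein, had an early high value, at 7.96, 6.08, 6.02, 6.10, 8.46 and 10.80, but E14.5 was as low as the middle days. Cbln2, a secreted organizer of synapses, turned back within the window, at 9.02, 10.10, 10.30, 9.95, 8.60 and 8.24, but was no peak because E14.5 lay above E16.5. On the positive side Hbb-y, an embryonic beta globin, was at 12.61, 12.36 and 12.18 up to E15.5, then at 9.04, 4.88 and 4.72, and Spink4, a secreted peptide of goblet cells, reached its late level by E16.5 (6.61, 7.48, 9.53, 12.49, 12.65 and 12.81).

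**Figure D3:**
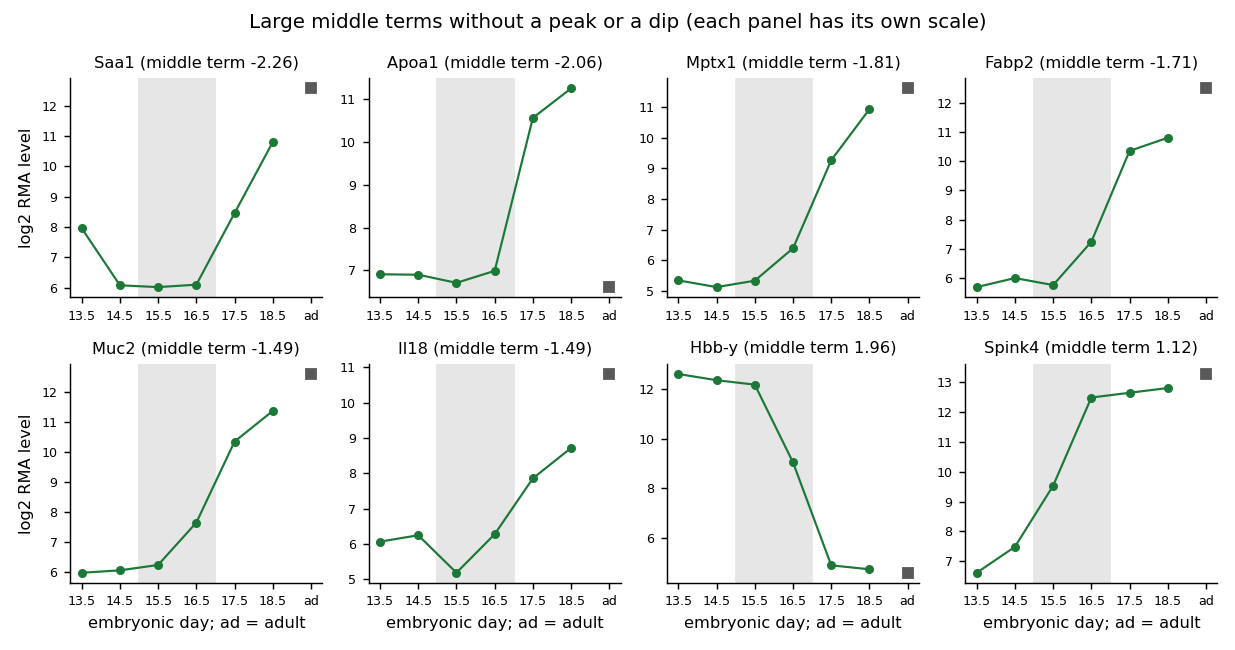
Levels (log2, RMA) by embryonic day (circles) and in the adult (grey squares) of 8 genes with large middle terms that were neither peaks nor dips, 1 array per point, with a separate scale in each panel and the middle days shaded. Apoa1 and Fabp2 stay near their early levels until E15.5 or E16.5 and lie above 10 on the last embryonic days.

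The share of peaks and dips followed the level of the gene. Peaks were 266 of the 1820 dimmest genes (14.6%) and 17 of the brightest (0.934%) when genes were cut into 10 groups by level, whereas dips were 35 (1.92%) and 113 (6.21%). The median outer level was 5.12 for peaks, 7.07 for dips and 6.12 for all genes. The spread of values moved with this. The SD over genes was 1.652 at E15.5 and 1.676 at E16.5, below the 1.697 to 1.736 of the outer arrays. When the gene values were quantile normalized over the arrays, peaks were 6.59% of the dimmest and 5.33% of the brightest of these groups, and dips were 10.3% and 1.81%. The association with level thus turned direction for dips, and 845 of 1277 peaks and 558 of 927 dips still met the rule. All 21 named peaks and 20 named dips did.

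**Figure D4:**
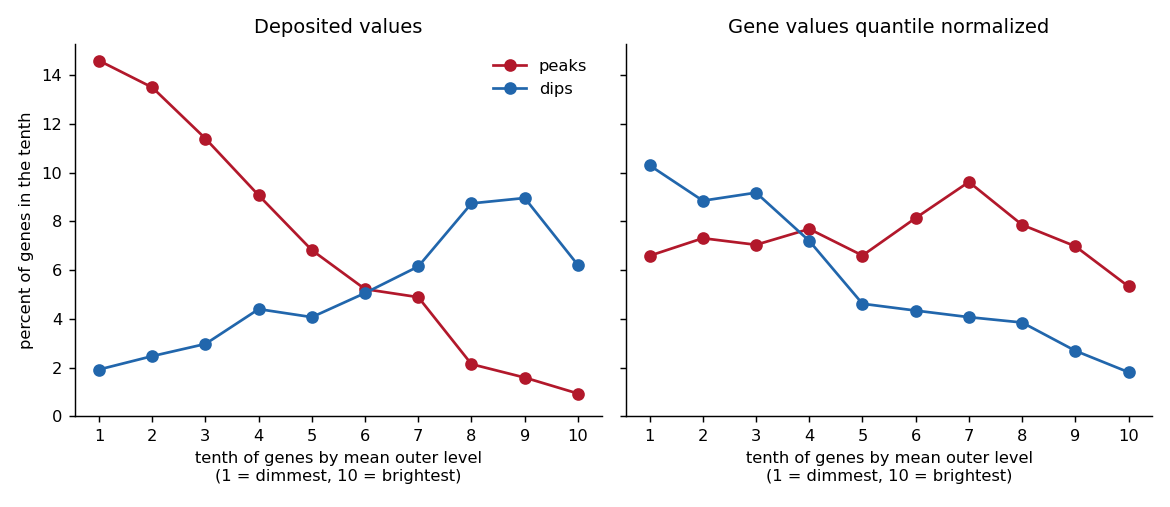
Percent of genes that were peaks (red) or dips (blue) in each of 10 groups of genes by mean outer level, for the deposited values on the left and after quantile normalization of the gene values on the right. On the left peaks go from 14.6% in the dimmest to 0.934% in the brightest group, a slope that is absent on the right.

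The difference in level also went with promoter letters. The TATA box letters were found upstream of 13% of 990 peaks, 7.46% of 751 dips and 9.02% of all genes, and the median number of CpG was 7, 15 and 13. Among the dimmest of the 10 groups they were found in 17.8% with a median of 4 CpG, and in the brightest in 6.95% with a median of 17. The shares of peaks and dips lay between these ends, and what part level plays in them was not tested.

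Among 48 gene lists, 58 of 949 listed genes (6.11%) were peaks and 35 (3.69%) were dips, near the 7.02% and 5.1% of all genes. No listed gene passed the limma test in either direction, and 8 lists held neither a peak nor a dip. These were colonocytes, mitosis and cell cycle, DNA replication, ribosomal proteins, splicing, histones, embryonic globins and sex-linked genes. Of the 29 mitosis genes 8, and of the 29 replication genes 6, were lower at every step, compared with 2.41% of all genes.

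Genes of the respiratory chain, which passes electrons from nutrients to oxygen in mitochondria, had a low value at E15.5. The median of the 28 genes was 10.18, 10.28, 9.83, 10.48, 10.76 and 10.97 over the embryonic days, and 26 of the 28 had a negative middle term (median -0.27, against -0.005 for all genes). E15.5 was the lowest of the 6 arrays in 24 of the 28 genes (85.7%), compared with 20.2% of all genes and 33.8% of the 1820 brightest genes. E16.5 was the lowest in none of them. The dips were Ndufs1 and Sdhc (7.14% of the list against 5.1% of all genes). Ndufs1, the largest subunit of complex I, was at 8.49 and 8.86 on the middle days against 9.12 to 9.32, and Sdhc, a membrane anchor of complex II, at 8.60 and 8.73 against 8.80 to 9.16. Uqcrc2, a core subunit of complex III, showed the single low array, at 11.14, 11.19, 10.41, 11.36, 11.52 and 11.66. Uqcrc1 of the same complex did not, with 8.73 at E15.5 against 8.14 to 8.84 on the outer days. Uqcrq was the only peak of the list (3.57% against 7.02% of all genes), with a gap below 0.01. The median middle term was -0.07 without E15.5 and -0.44 without E16.5. After quantile normalization it was -0.16, and E15.5 was still the lowest array in 21 of the 28 genes. As a measure of RNA integrity, the 5′ signal of the Gapdh controls was set against their 3′ signal, which gave a difference of -1.59 at E15.5 and of -1.29 to -1.48 on the remaining embryonic days. For Actb the E15.5 array stood at -2.14, with -1.96 to -2.11 elsewhere. Their part in the low value at E15.5 was not tested.

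Cholesterol synthesis showed the same array to a lesser extent. E15.5 was the lowest of the 6 in 10 of 20 genes, and the median middle term was -0.21, or -0.12 without E15.5 and -0.09 after quantile normalization. Sqle, which makes squalene epoxide, was at 8.57 and 8.88 against 9.05 to 9.29, and Mvd, which makes isopentenyl diphosphate, at 5.85 and 6.11 against 6.23 to 6.99. These 2 dips were 10% of the list, against 5.1% of all genes, and it held no peak. Of 22 ribosomal proteins E15.5 was the lowest in 14, but in 5 after quantile normalization.

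**Figure D5:**
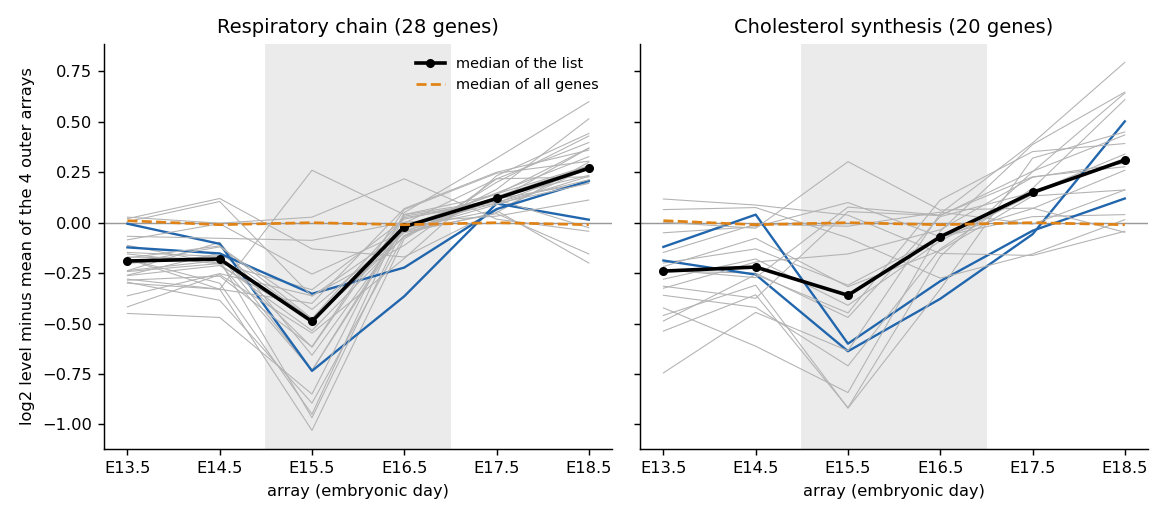
Log2 level of each gene minus its mean over the 4 outer arrays, for 28 respiratory chain genes and 20 cholesterol synthesis genes, with dips in blue, other genes in grey, the list median in black and the median of all genes as a dashed line. The respiratory chain median lies at -0.49 at E15.5 and at -0.02 at E16.5.

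Absorptive and secretory genes of the epithelium lay on a slope through the middle days. Relative to the outer mean of each gene, the median of the 20 goblet cell genes was -1.59 and -1.53 on the early days, -0.77 at E15.5, 0.66 at E16.5, and 1.27 and 1.70 on the late days. Their median middle term, -0.17, had no stable direction, at 0.30 without E15.5, 0.05 without E13.5 and -0.49 without E16.5. The list held no dip and 1 peak (5% against 7.02% of all genes). The 26 colonocyte genes held neither a peak nor a dip, and their median went from -0.54 at E15.5 to 0 at E16.5, with a median middle term of -0.25 that was -0.14 without E15.5 or without E14.5. The goblet cell peak was St6galnac1, a sialyltransferase of mucin glycans, at 6.10 and 6.18 against 5.67 to 5.88. The level was higher at every step in 10 of the 20 goblet cell genes, compared with 2.94% of all genes.

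In each of the signaling lists peaks were 3.45% to 6.9% of the genes, against 7.02% of all genes. Dips were 0% to 10%, against 5.1% of all genes. Fgfr2, a receptor of fibroblast growth factors in epithelium, was the largest dip in these lists, at 5.74 and 5.78 against 5.95 to 6.28. Only 1 of its 3 probe sets met the rule. Hhip, which binds and restrains Hedgehog ligands, was at 6.93, 6.49, 6.06, 6.07, 6.22 and 6.23 over the embryonic days. Its late values thus lay nearer to the middle values than its early ones did, and 1 of its 4 probe sets met the rule. Dkk1, an inhibitor of Wnt signaling, was at 4.53 and 4.46 against 4.25 to 4.32, and Lef1, a nuclear effector of that pathway, at 5.52 and 5.49 against 5.30 to 5.38. Both were dim. Of 30 Hox genes, 2 were peaks (6.67% against 7.02% of all genes) and 3 were dips (10% against 5.1%), with gaps of at most 0.04 in size.

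Among enteric neuron genes 4 of 25 were peaks (16% against 7.02% of all genes) and none was a dip (5.1% of all genes). Their median middle term was -0.02, and it was negative in 13 of the 25, so the list as a whole was not higher on the middle days. Chat, which makes acetylcholine, was at 5.19 and 5.18 against 4.79 to 5.04. It was dim, with an outer mean of 4.93, in a group by level of which 11.4% were peaks. Elavl4 and Nefl, an RNA-binding protein and a neurofilament of neurons, had gaps of 0.05 and 0.09 and were mainly low at E13.5. Among interferon response genes 3 of 22 were dips (13.6% against 5.1% of all genes) and 1 was a peak (4.55% against 7.02%). The dips were Bst2, Ifitm1 and Irf1, with gaps of -0.22, -0.14 and -0.01. Ifitm1, a membrane protein that restricts viruses, was at 8.65 and 9.16 against 9.30 to 9.69. Mt2, a metallothionein that responds to glucocorticoids and metals, was at 7.76 and 7.71 against 7.12 to 7.54 and reached 11.28 in the adult. Of the 25 hypoxia and glycolysis genes 2 were peaks (8% against 7.02% of all genes) and none was a dip. These were Adm and Pfkp, a vasoactive peptide and a phosphofructokinase, with gaps of 0.12 and 0.24. Of the 3 probe sets of Pfkp 1 met the rule. The middle term was negative in 14 of the 25 genes, with a median of -0.03, so this list as a whole was not higher on the middle days.

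Markers of blood cells that the whole colon could hold were mostly dim. Among lymphocyte genes 4 of 19 were peaks (Rag1, Il7r, Ms4a1 and Cd4), and among neutrophil and mast cell genes 3 of 20 were peaks and 1 was a dip. These shares of peaks, 21.1% and 15%, stood beside 7.02% of all genes and 11.4% to 14.6% in the dimmest 3 of 10 groups by level. The median levels of these lists were 5.18 and 4.88, below the 6.12 of all genes, and apart from Rag1 and the mast cell protease Cpa3 (4.91 and 4.84 against 4.42 to 4.64) no peak gap among them exceeded 0.06. Among 14 pacemaker and stroma genes 3 were dips (21.4% against 5.1% of all genes). Of these, Ano1, a chloride channel of pacemaker cells, and Foxf1, a factor of gut mesenchyme, had gaps of -0.02. Each has 2 probe sets, and none of them met the rule alone. The remaining dip was Hhip, for which 1 of 4 probe sets met the rule. Upk3b, a mesothelial membrane protein, was at 8.68 and 7.64 before a middle of 6.71 and 6.98 and stood at 7.07 and 7.23 after it. It was the only dip of 12 mesothelium genes (8.33%). Hspa5, the main chaperone of the endoplasmic reticulum, was at 10.49 and 10.80 against 10.90 to 11.01, with 2 of 3 probe sets dipping. Dips were 8% of the 25 genes of its list, unfolded protein and amino acid response. Nr1d2, a repressor of the circadian clock, was at 6.30 and 6.37 against 6.53 to 6.65, with 1 of 2 probe sets dipping. Of the 18 clock genes 1 was a dip and 1 a peak (5.56% each).

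The adult array was not used by the rule, but the outer values it is compared with were. The rule takes peaks with outer values below the middle values, and dips with outer values above them. Shares of adult values above or below the outer range are therefore not independent of the rule. The adult level was above the highest outer value in 597 peaks (46.8%) and 394 dips (42.5%), compared with 37.8% of all genes. It was below the lowest outer value in 180 peaks (14.1%) and 278 dips (30.0%), compared with 26.5% of all genes. Of the 61 dips with a gap of at least 0.2, 33 had an adult level above all outer values, and the median difference of adult from outer mean was 0.25, against 0.04 for all genes. Nudt4 and Ralgapa2, with adult levels of 10.41 and 7.47, were among them. With 1 adult array no test was possible. The adult array also stood apart in the control probe sets, where 5′ minus 3′ was -2.41 for Gapdh and -2.66 for Actb, and its part in these shares was not tested.

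Of the 591 peaks measured by several probe sets, 27 met the rule in every probe set, 437 in some and 127 in none. Of 461 such dips, the numbers were 27, 347 and 87. Single probe sets measured 686 peaks and 466 dips, among them all 4 genes with a gap of at least 0.5.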

How the data were processed

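Colon RNA of inbred C57BL/6 mice was hybridized to 7 arrays, 1 per stage. The deposited values are log2 intensities, made by the authors with RMA (background correction, quantile normalization of probes, median polish). Credit for affy 1.22.1 and R 2.9.2 is to the submitters' processing notes. The fit of arrays to a common distribution can hide shifts shared by most genes. Of 45101 probe sets, 34958 name 1 gene, 932 name several and 9211 none. The median over the single-gene probe sets was taken for 18194 genes, with symbols updated through GRCm38.p6 (18033 of 18195 identifiers matched).

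limma 3.58.1 in R 4.3.3 (lmFit, eBayes) fitted an intercept, a slope per embryonic day and a middle term to the 6 embryonic arrays, with Benjamini-Hochberg adjustment over all genes. The fit and the gap rule were tested on simulated data. Genes were named as the 20 peaks and 20 dips with the largest gap and a standard symbol, up to 4 peaks or dips per list, those next to a gap of 0.5, sex-linked genes and tissue markers. The members and the 48 lists (949 of 1030 genes measured) were chosen with earlier results of these data known. Alternatives are given below. Python 3.11.15, numpy 2.4.6, pandas 2.3.3 and matplotlib 3.10.9 were used. The number of arrays limits the precision.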

Additional observations from a re-analysis of the deposited data

How the results depend on the processing

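The number of peaks was 1277 and was 695 without the dimmest 25% of genes and 835 with the adult added to the outer arrays. Leaving out 1 embryonic array at a time gave 1519 to 3820 peaks and 1225 to 3935 dips, most without E16.5 (without E15.5, 2764 and 2137; without E17.5, 1995 and 1444). Fewer arrays make the rule easier to meet, so these counts can only grow. With a gap of at least 0.5 there were 2 peaks and 2 dips. Without the dimmest genes, with the adult array, or after subtracting the line through embryonic day there was 1 such peak, and after that subtraction there were 26 such dips. After quantile normalization, chosen after seeing the data, there was 1 of each, and centring each array on its median gave 1 dip. A gap of at least 1 was met by 0 peaks and 0 dips. Leaving out 1 array gave 2 to 71 peaks and 2 to 217 dips with a gap of at least 0.5, most without E16.5 (without E15.5, 13 and 5; without E14.5, 4 and 7). Steadily rising genes numbered 807 to 1240 and falling genes 724 to 1045 with 1 array left out, most without E15.5. No gene passed the limma test under any alternative run, with a smallest adjusted p between 0.103 (without E16.5) and 0.984 (no slope). The unadjusted counts moved, to 502 higher and 530 lower without E15.5, 305 and 711 without E13.5, 316 and 712 without E18.5, 363 and 322 without the slope, 1299 and 2364 without E16.5, and 908 and 876 after quantile normalization. Taking the brightest probe set per gene, 846 of 1277 peaks and 603 of 927 dips still met the rule. Among the named genes, which have the largest gaps, 19 of 21 peaks and 17 of 20 dips did. With this setting the middle terms of Shisa9 (0.0) and Glrx2 (0.02) turned sign or vanished. No paired analysis was possible because each stage has 1 array.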

Other observations

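Some genes with large middle terms stood outside the 20 peaks named above, and they were chosen here after their values were seen. Insm1, a transcription factor of endocrine and neural precursors, was at 5.45, 6.09, 6.96, 6.18, 5.82 and 5.53 over the embryonic days, a single high array at E15.5 with shoulders on both sides (middle term 0.85, SE 0.26, limma adjusted p = 0.449). Dlx2, a homeobox factor, was at 7.90, 8.61, 8.92, 8.73, 8.15 and 7.48 and at 6.34 in the adult. Kcnt2, a sodium-activated potassium channel, was at 6.99, 7.04, 7.79, 7.29, 6.76 and 6.58. Sox2, a factor of neural and foregut progenitors, was highest at E15.5 with 7.83 against 6.18 to 7.07 on the outer days, but its value at E16.5, 6.70, lay within the outer range, so it was no peak.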
